A study of Homo sapiens with 3 samples.

Results

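The chromosome 19 zinc finger genes described here are the protein-coding genes that the deposited table places on chromosome 19 under a symbol made of ZNF and a number. The rule found 243 of the 29960 genes of the table, 18.2% of its 1335 protein-coding genes of that chromosome. They carry 240 symbols, since ZNF177, ZNF548 and ZNF763 are each listed under 2 identifiers. RNA was sequenced from 5637 cells, an established human bladder cancer line, as parental cells (5637P) and as a gemcitabine-resistant derivative (5637GR). Both groups were labelled as untreated, 5637P was labelled wild type, and both were grown in RPMI medium with fetal bovine serum. By the methods of the study the libraries came from single-cell clones, 3 per group, and the resistant cells were kept without the drug, so each library stands for 1 clone. Counts per library were used for the 3 libraries with a sample label, 1 of 5637P and 2 of 5637GR, and the authors' group means were used beside them.

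Most genes of this kind encode proteins with an array of C2H2 zinc fingers that reads DNA sequence, often joined to a KRAB domain. The KRAB domain binds TRIM28 (KAP1), which brings the histone methyltransferase SETDB1 and heterochromatin protein 1 to the bound site, and many of these proteins bind transposable elements. The genes arose by repeated tandem duplication, which left them in clusters along chromosome 19 and left neighbours with similar sequences.

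The 3 libraries held 14475531 to 17461941 reads on genes. A count of 3 reads was taken as the floor, which corresponded to 0.172 to 0.214 CPM (counts scaled to library size by the TMM method), for counting error only. Epithelial identity was visible in each library, where 13 listed urothelial and epithelial markers summed to 10295 CPM in 5637P and to 7491 and 7639 CPM in the 5637GR libraries, with UPK3A at 0 reads. Of these markers 1, KRT5, passed the test and fell in 5637GR (adjusted p 0.0006, edgeR). Haematopoietic markers summed to at most 0.490 CPM and endothelial markers to at most 0.859 CPM, neural markers to at most 2.64 CPM, and fibroblast markers, carried by COL1A1 and COL1A2, to 145 to 173 CPM. The listed markers CD68, PECAM1 and DCN had no entry under these symbols, so the haematopoietic, endothelial and fibroblast sums leave them out. The group ratio of a gene is the log2 of 5637GR over 5637P in the authors' means, with 1 added to both, and is described for genes whose 2 group means averaged at least 10. A ratio of a single library is that of its CPM to the CPM of the 5637P library.

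ZNF667 (ENSG00000198046, chromosome 19, 56950694 to 56989434, minus strand, hg19) had the largest ratio of the chromosome 19 ZNF genes past this filter. It was read 5 times in the 5637P library, 93 times in 5637GR library 1 and 45 times in library 2, which gave 0.356, 5.70 and 2.58 CPM. Both resistant libraries lay above the parental one, which was close to the floor. In bulk RNA, fewer cells with the transcript and less transcript per cell cannot be told apart. The ratio to 5637P was 16.0 (95% counting interval 6.62 to 50.4) in library 1 and 7.24 (2.89 to 23.4) in library 2. The authors' group means were 2.71 in 5637P and 49.9 in 5637GR, a log2 ratio of 3.78. In edgeR's quasi-likelihood test on the 3 libraries the log2 fold change was 3.51 ± 0.87 (SE), with an unadjusted p of 0.00232 and a Benjamini-Hochberg adjusted p of 0.132, so the difference did not pass the threshold of 0.05. Without a filter on low counts the same test gave an adjusted p of 0.00129, and edgeR with DESeq2's size factors and DESeq2 itself gave 0.0672 and 0.0828.

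The antisense gene ZNF667-AS1 (ENSG00000166770, listed under the clone name AC004696.2, 56988619 to 57012035, plus strand) overlaps the start of ZNF667. It was read 4, 86 and 38 times in the same order of libraries, which gave 0.285, 5.27 and 2.18 CPM. The 2 overlapping genes thus had the same order of libraries. Ratios to 5637P were 18.5 (6.97 to 69.4) and 7.65 (2.75 to 29.5), and the adjusted p was 0.144 (edgeR). Whether the counting used strand is not given in the sources used here, so reads from the overlap of the 2 genes cannot be told apart. In RefSeq (GRCh38.p14) the start site of ZNF667 lies 528 and 778 bases from the 2 start sites of ZNF667-AS1, on the opposite strand. The promoter window of ZNF667 is printed here because this gene had the largest ratio of the chromosome 19 ZNF genes past the filter. The window spans 300 bases around its start site, with every CpG in capitals. It lies at chr19:56477296-56477595 on the minus strand of GRCh38.p14 and holds 42 CpG, against a median of 20 per window for the chromosome 19 ZNF genes.
ZNF667: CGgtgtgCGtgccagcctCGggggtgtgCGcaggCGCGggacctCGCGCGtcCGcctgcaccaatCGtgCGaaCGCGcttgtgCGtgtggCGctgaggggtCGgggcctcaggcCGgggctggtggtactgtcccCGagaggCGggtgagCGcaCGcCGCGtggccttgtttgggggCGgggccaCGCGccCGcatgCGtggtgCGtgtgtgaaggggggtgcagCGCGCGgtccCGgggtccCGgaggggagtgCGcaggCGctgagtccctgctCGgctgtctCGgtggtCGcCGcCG

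The genes on either side of ZNF667 had smaller differences. ZNF582 was read 20, 30 and 34 times in 5637P and 5637GR libraries 1 and 2, and ZNF583 44, 41 and 57 times. ZNF471, on the other side, was read 25, 52 and 31 times, and ZFP28, a KRAB zinc finger gene outside the naming rule, 25, 38 and 32 times. Their levels lay between 1.42 and 3.27 CPM in the 3 libraries, with library ratios that did not exceed 0.82 in log2 for the ZNF genes. Of these neighbours none approached the ratio of ZNF667.

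As a whole the chromosome 19 ZNF genes were low and differed little between the authors' group means. Of the 243 genes, 220 passed the filter and 23 did not, 18 of them with 3 reads or fewer in each library. ZNF676 and ZNF578 had no read in any of the 3. A read was found in every library for 226 genes, and together the 243 genes took 0.258% of the reads in 5637P and 0.228% and 0.259% in the 5637GR libraries. Per length their median level was 2.06 FPKM, against 4.03 FPKM for 224 ZNF genes of other chromosomes and 14.8 FPKM for 731 other protein-coding genes of chromosome 19. By the group means the median log2 ratio of the 220 genes was -0.01, with 109 higher and 111 lower in 5637GR. Of the 220, 85.9% lay within 1.5-fold, against 81.4% of the 14630 genes past the filter. The labelled libraries were less even, with 146 of the 220 lower in 5637GR library 1 (median -0.24) and 130 in library 2 (-0.10). Over the 14630 genes 7372 and 7544 were lower, with medians of -0.01 and -0.02.

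By the group means few of them reached a 2-fold ratio. ZNF667 was the 1 gene at least 2-fold higher (0.455%, against 3.21% of genes past the filter), and ZNF114, ZNF257 and ZNF665 were the 3 at least 2-fold lower (1.36%, against 3.15%). ZNF667, ZNF114 and ZNF257 had a mean under 10 in 1 group and passed the filter through the group where they were higher. With a mean of at least 50 required, both counts were 0. These counts depended on the values used: ratios taken from the 3 libraries gave 5 higher and 12 lower, and those of either resistant library alone 8 higher and 12 lower. In the libraries, ZNF667 and ZNF491 were at least 2-fold higher in both resistant libraries, where 3.83% of genes were. ZNF114, ZNF257, ZNF345, ZNF440 and ZNF441 were at least 2-fold lower in both, where 3.22% of genes were. None of the 221 chromosome 19 ZNF genes tested by edgeR passed an adjusted p of 0.05, where 0.294% of the 15643 genes tested were called higher and 0.582% lower. At an unadjusted p under 0.05 there were 10 (4.52%), against 9.7% of the genes tested, 1 higher and 9 lower. With DESeq2's size factors edgeR called 0, with 10 under an unadjusted p of 0.05, where 235 of the 15643 genes tested were called. DESeq2 called 0 of 241, with 2 under an unadjusted p of 0.05, where 247 of 26434 genes were called. Without a filter on low counts edgeR called 2 of 241, ZNF667 higher and ZNF257 lower, the second with an adjusted p of 0.034. In that setting 534 of 26434 genes were called, against 137 of 15643 with the filter.

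**Figure D1:**
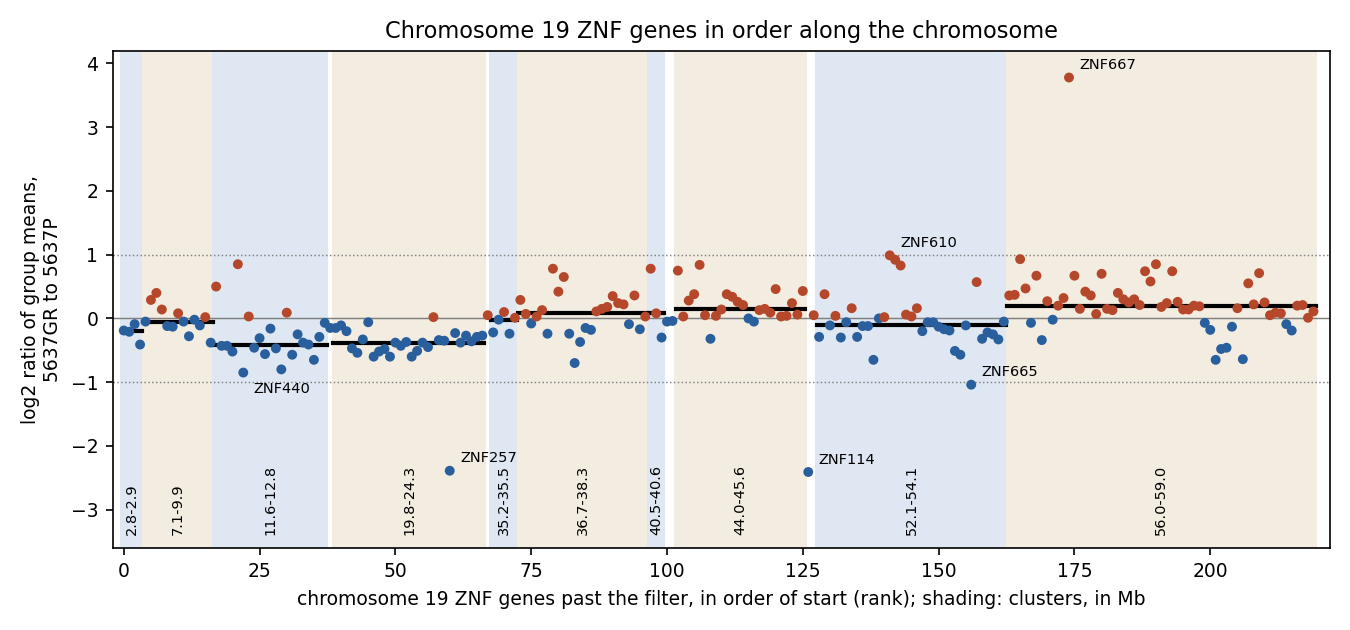
Each point is 1 of the 220 chromosome 19 ZNF genes past the filter, placed by its rank in order of start (horizontal axis), with its log2 group ratio, 5637GR to 5637P (vertical axis; red above 0, blue below 0). Shading marks the 10 clusters with at least 3 such genes, labelled in Mb, and black bars their medians: the bars of the 11.6 to 12.8 Mb and 19.8 to 24.3 Mb clusters sit at -0.41 and -0.38, and ZNF667 stands alone at 3.78.

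Split at gaps of over 1 Mb between consecutive starts, the 243 genes fell into 16 clusters, of which 10 held at least 3 genes past the filter. The lowest medians of these belonged to the clusters at 11.6 to 12.8 Mb and 19.8 to 24.3 Mb, both on the short arm. In the first, 17 of 21 genes were lower in 5637GR and the median log2 ratio was -0.41, and in the second 27 of 28 were lower and the median was -0.38. Over all genes past the filter 48.6% were lower and the median was 0.01. The 3 libraries gave the same side, but they also enter the group means and are no independent check on them. The median ratio to 5637P in the first cluster was -0.53 in 5637GR library 1 and -0.68 in library 2, with 18 and 19 of 21 genes lower, and in the second it was -0.55 and -0.70, with 25 and 27 of 28 lower. Both ratios share the single 5637P library, and no gene of these clusters passed the test at an adjusted p of 0.05 (smallest 0.228 and 0.432, edgeR).

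The difference was small in most of these genes and larger in a few. ZNF440 (chromosome 19, 11925099 to 11946016, plus strand, hg19) had the lowest ratio of the 11.6 to 12.8 Mb cluster. It was read 954 times in 5637P and 501 and 529 times in 5637GR, or 67.9, 30.7 and 30.3 CPM. The resistant libraries were alike and both were below the parental one, with ratios of 0.452 (95% counting interval 0.405 to 0.504) and 0.446 (0.401 to 0.497). The group means were 880.8 and 488.3, a log2 ratio of -0.85, and edgeR gave a log2 fold change of -1.15 ± 0.34 (SE) with an adjusted p of 0.228. ZNF844 (138, 64 and 86 reads, log2 ratio -0.80) and ZNF443 (106, 77 and 63 reads, -0.65) were next in this cluster. ZNF491 went the other way at 6, 15 and 26 reads, a log2 ratio of 0.85, and ZNF653, chosen after its values were seen, had 93, 125 and 245 reads and a ratio of 0.50.

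In the 19.8 to 24.3 Mb cluster the ratios lay close together, with quartiles of -0.49 and -0.27. ZNF486 was read 201, 97 and 144 times (14.3, 5.94 and 8.25 CPM), a log2 ratio of -0.60. ZNF431 was read 289, 173 and 204 times (20.6, 10.6 and 11.7 CPM), also -0.60. ZNF429, the only gene of the 28 with a ratio above 0, had 113, 135 and 116 reads and a ratio of 0.02. This cluster also holds ZNF91 and ZNF93, chosen after their values were seen, whose proteins are known to bind and repress SVA and LINE-1 retrotransposons. ZNF91 stood at 25.0 CPM in 5637P and at 19.2 and 15.2 CPM in 5637GR, a log2 ratio of the group means of -0.38. ZNF93 stood at 12.9, 7.72 and 5.84 CPM, a log2 ratio of -0.54. Both were lower in each resistant library, and neither passed the test (unadjusted p of 0.192 and 0.0633, edgeR).

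Other genes in and around the same regions did not show this pattern in the group means. Few of them start among the ZNF genes. Past the filter there were 3 within the first span, with a median of 0.12, and 1 within the second, at 0.17. The rest lie in the 1 Mb on either side. The 57 other protein-coding genes past the filter within the span of the 11.6 to 12.8 Mb cluster and 1 Mb around it had a median log2 ratio of 0.09, with -0.31 in 5637GR library 1 and 0.30 in library 2. Around the 19.8 to 24.3 Mb cluster 25 such genes had a median of 0.07, with -0.40 and 0.25. In library 1 the neighbours were therefore lower too, and in library 2 they were higher while the ZNF genes were lower. The difference between the ZNF genes and their neighbours was not tested. The neighbours of the ZNF genes differ from them in base composition: ZNF transcripts of chromosome 19 had a median GC content of 42.4%, against 60.2% for other protein-coding genes of the chromosome. Each ratio was then centred on the median of its class among 5 equal classes of GC content, a step chosen after seeing the data. The medians were -0.39 (-0.55 and -0.54 in the 2 libraries) for the first cluster and -0.36 (-0.59 and -0.56) for the second. The other protein-coding genes of the whole chromosome stood at 0.03 after this step, with -0.25 in library 1 and 0.18 in library 2. What part GC content had in the cluster medians was not tested.

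**Figure D2:**
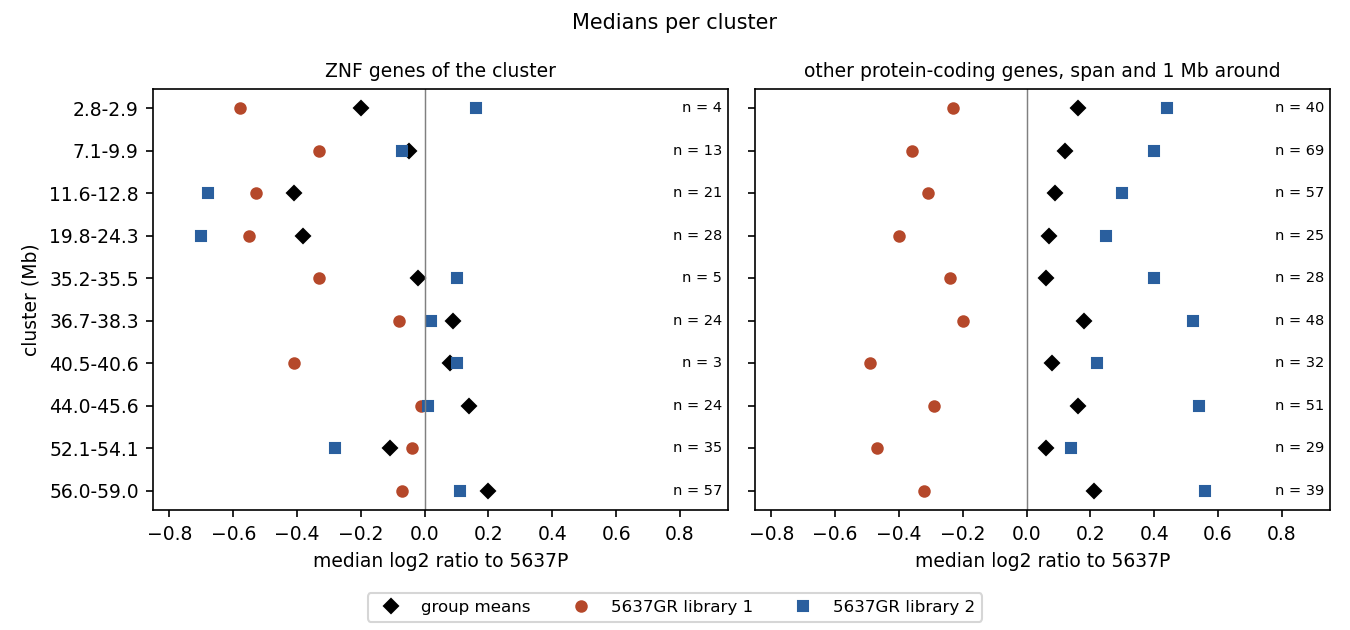
Median log2 ratio to 5637P (horizontal axis) in each of the 10 clusters (vertical axis, Mb), for the ZNF genes of the cluster (left) and for the other protein-coding genes within its span and 1 Mb around (right). Diamonds are the authors' group means, circles 5637GR library 1 and squares library 2. In the 11.6 to 12.8 Mb and 19.8 to 24.3 Mb clusters the 3 markers of the ZNF genes lie at -0.38 or below, while those of the neighbours straddle 0.

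Reads of near-identical genes can be split or lost in counting, so the share of each gene's 50-base words found in another gene was measured on GENCODE release 29, which matched 241 of the 243 genes. Among the 218 matched genes past the filter the median share was 1.83%, 39 genes shared over 10% and 6 over 50%. ZNF667 shared 0.0385% and ZNF440 6.35%, whereas ZNF443 shared 39.7%, most with ZNF799, and is uncertain for that reason. Among genes sharing at most 10%, 11 of 14 in the 11.6 to 12.8 Mb cluster and 25 of 26 in the 19.8 to 24.3 Mb cluster were lower, with medians of -0.41 and -0.38.

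On the long arm the 2 clusters with the highest medians were those at 44.0 to 45.6 Mb and 56.0 to 59.0 Mb, which holds ZNF667. In the first, 21 of 24 genes were higher by the group means, with a median of 0.14, and in the second 45 of 57, with a median of 0.20. Past the filter 51.4% of all genes were higher, and 67.2% of the other protein-coding genes of chromosome 19. The labelled libraries did not carry these counts. In the 44.0 to 45.6 Mb cluster 12 of 24 genes were higher in 5637GR library 1 and 13 in library 2, with medians of -0.01 and 0.01. In the 56.0 to 59.0 Mb cluster 25 and 35 of 57 were higher, with medians of -0.07 and 0.11. The other protein-coding genes in and around the 2 clusters had group medians of 0.16 and 0.21, with 34 of 51 and 34 of 39 higher. Their medians were close to those of the ZNF genes, so the rise was not particular to the ZNF genes. ZNF549 was the gene of the 56.0 to 59.0 Mb cluster with the largest ratio after ZNF667 and ZNF524. It was read 23, 75 and 53 times (1.64, 4.59 and 3.04 CPM), a log2 ratio of 0.85. ZNF419 (69, 135 and 131 reads) and ZNF530 (112, 205 and 171 reads) each had a log2 ratio of 0.74. In the 44.0 to 45.6 Mb cluster ZNF404 was highest, at 27, 37 and 61 reads and 0.84, and ZNF221 lowest, at 97, 82 and 70 reads and -0.32.

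Within the 56.0 to 59.0 Mb cluster, 5 of the 6 genes past the filter that start at 58.3 to 58.4 Mb, a stretch chosen after its values were seen, had a lower group mean in 5637GR and 1 a higher one. ZNF587 (596, 495 and 680 reads, log2 ratio -0.13) and ZNF417 (155, 172 and 178 reads, 0.16) differed little. ZNF552 was read 271, 152 and 177 times (19.3, 9.31 and 10.1 CPM), a log2 ratio of -0.65. Nearby, ZNF587B (329, 207 and 185 reads, -0.48) and ZNF814 (165, 107 and 132 reads, -0.46), both chosen after their values were seen, were lower in both resistant libraries as well. ZNF552, ZNF587B and ZNF814 share 18.4%, 20.5% and 27.4% of their words with other genes, so their separate values are uncertain and the 3 genes are not independent of each other. The same holds for ZNF587 and ZNF417, which share 20.2% and 40.1% of their words, most of these with each other. The unadjusted p of ZNF552 and ZNF587B was 0.0331 and 0.0269 and the adjusted p 0.448 and 0.423 (edgeR).

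The 52.1 to 54.1 Mb cluster held 35 genes past the filter, 12 higher and 23 lower, with a median of -0.11. Its 3 highest ratios belonged to the adjacent genes ZNF610, ZNF880 and ZNF528 (52839498 to 52921665, plus strand, hg19). ZNF610 was read 28, 116 and 39 times (1.99, 7.10 and 2.24 CPM), ZNF880 118, 271 and 179 times (8.40, 16.6 and 10.3 CPM) and ZNF528 114, 325 and 134 times (8.12, 19.9 and 7.68 CPM). The 3 genes were highest in 5637GR library 1, whereas library 2 was near the 5637P library. Their log2 ratios of the group means were 0.99, 0.92 and 0.83, and ZNF610 and ZNF528 were among the 5 genes furthest apart between the resistant libraries. The promoter windows of ZNF880 and ZNF528, 2 neighbouring genes that were both highest in 5637GR library 1, are printed with CpG in capitals. Both contain the ETS core CCGGAAG, which is not particular to them. It was found in 39.7% of the windows of chromosome 19 ZNF genes, among them those of ZNF616 and ZNF808 in the same cluster. Both windows come from RefSeq (GRCh38.p14), at chr19:52369673-52369972 and chr19:52397599-52397898 on the plus strand.
ZNF880: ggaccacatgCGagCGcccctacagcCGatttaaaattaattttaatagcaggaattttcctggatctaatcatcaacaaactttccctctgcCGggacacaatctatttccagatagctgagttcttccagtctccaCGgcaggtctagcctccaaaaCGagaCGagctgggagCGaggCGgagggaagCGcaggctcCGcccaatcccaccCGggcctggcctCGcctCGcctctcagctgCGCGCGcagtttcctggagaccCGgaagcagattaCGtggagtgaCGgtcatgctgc
ZNF528: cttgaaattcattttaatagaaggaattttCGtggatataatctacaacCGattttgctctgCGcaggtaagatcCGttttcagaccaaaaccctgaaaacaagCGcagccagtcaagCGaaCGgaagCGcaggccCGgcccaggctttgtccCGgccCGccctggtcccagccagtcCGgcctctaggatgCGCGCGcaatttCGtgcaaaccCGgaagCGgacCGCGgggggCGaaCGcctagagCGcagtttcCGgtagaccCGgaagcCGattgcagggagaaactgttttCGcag

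ZNF665, the lowest gene of the 52.1 to 54.1 Mb cluster, was read 58, 40 and 28 times (4.13, 2.45 and 1.60 CPM), a log2 ratio of -1.04. ZNF836 followed at 81, 56 and 54 reads and -0.65. Both lay lower in each resistant library. The remaining 5 clusters with at least 3 genes had medians between -0.20 and 0.09. Those at 2.8 to 2.9 Mb, 35.2 to 35.5 Mb and 40.5 to 40.6 Mb held 4, 5 and 3 genes and had medians of -0.58, -0.33 and -0.41 in 5637GR library 1 against 0.16, 0.10 and 0.10 in library 2. At 7.1 to 9.9 Mb the 13 genes had a median of -0.05, between ZNF414 at 0.40 and ZNF846 at -0.38. The 24 genes at 36.7 to 38.3 Mb had a median of 0.09 and spanned from ZNF461 (46, 86 and 78 reads, 0.78) to ZNF345 (57, 30 and 29 reads, -0.70). ZNF546 at 40.5 Mb, with 14, 28 and 29 reads, also had a log2 ratio of 0.78.

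The 2 genes furthest apart between the resistant libraries were each under the floor in 1 of them. ZNF257, of the 19.8 to 24.3 Mb cluster, was read 52 times in 5637P, 26 times in 5637GR library 1 and not at all in library 2, or 3.70, 1.59 and 0 CPM. In library 2 the ratio to 5637P was at most 0.0592, the upper end of its 95% counting interval, and in library 1 it was 0.430 (0.258 to 0.702). ZNF418, of the 56.0 to 59.0 Mb cluster, went the other way, with 69 reads in 5637P, 2 in library 1 and 64 in library 2, or 4.91, 0.122 and 3.67 CPM. The ratio to 5637P was 0.0249 (0.00296 to 0.0936) in library 1 and 0.747 (0.523 to 1.07) in library 2. Each gene was thus under the floor in a different library. Their group means were 50.6 in 5637P and 8.87 in 5637GR for ZNF257 and 64.7 and 41.2 for ZNF418, which average over clones that differ. The promoter windows of both genes are printed with CpG in capitals, since these genes set the 2 resistant libraries furthest apart. Each holds 13 CpG, and they lie at chr19:22052234-22052533 on the plus strand and chr19:57935353-57935652 on the minus strand of GRCh38.p14 (RefSeq).
ZNF257: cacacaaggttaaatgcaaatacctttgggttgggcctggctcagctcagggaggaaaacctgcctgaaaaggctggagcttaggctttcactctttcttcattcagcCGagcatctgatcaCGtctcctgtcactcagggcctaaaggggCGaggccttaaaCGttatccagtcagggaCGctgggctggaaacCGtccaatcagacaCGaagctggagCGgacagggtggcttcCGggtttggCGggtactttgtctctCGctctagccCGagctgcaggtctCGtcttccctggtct
ZNF418: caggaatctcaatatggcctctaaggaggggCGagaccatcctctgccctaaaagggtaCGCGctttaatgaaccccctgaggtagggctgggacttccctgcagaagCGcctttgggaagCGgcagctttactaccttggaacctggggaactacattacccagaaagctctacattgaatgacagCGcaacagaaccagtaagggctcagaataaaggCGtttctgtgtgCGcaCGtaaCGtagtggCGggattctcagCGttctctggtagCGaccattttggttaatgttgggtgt

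ZNF114, which lies at 48.7 Mb outside the larger clusters, had the lowest ratio of the group means, -2.41. It was read 27 times in 5637P and 11 and 4 times in 5637GR, or 1.92, 0.674 and 0.229 CPM. Both resistant libraries were lower, with ratios of 0.351 (0.157 to 0.730) and 0.119 (0.0303 to 0.342), and the adjusted p was 0.473 (edgeR). The other 5 genes past the filter in the 6 smaller clusters had log2 ratios between -0.15 and 0.05. ZNF878, in the 11.6 to 12.8 Mb cluster, was read 14, 16 and 3 times, so that library 2 was at the floor.

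**Figure D3:**
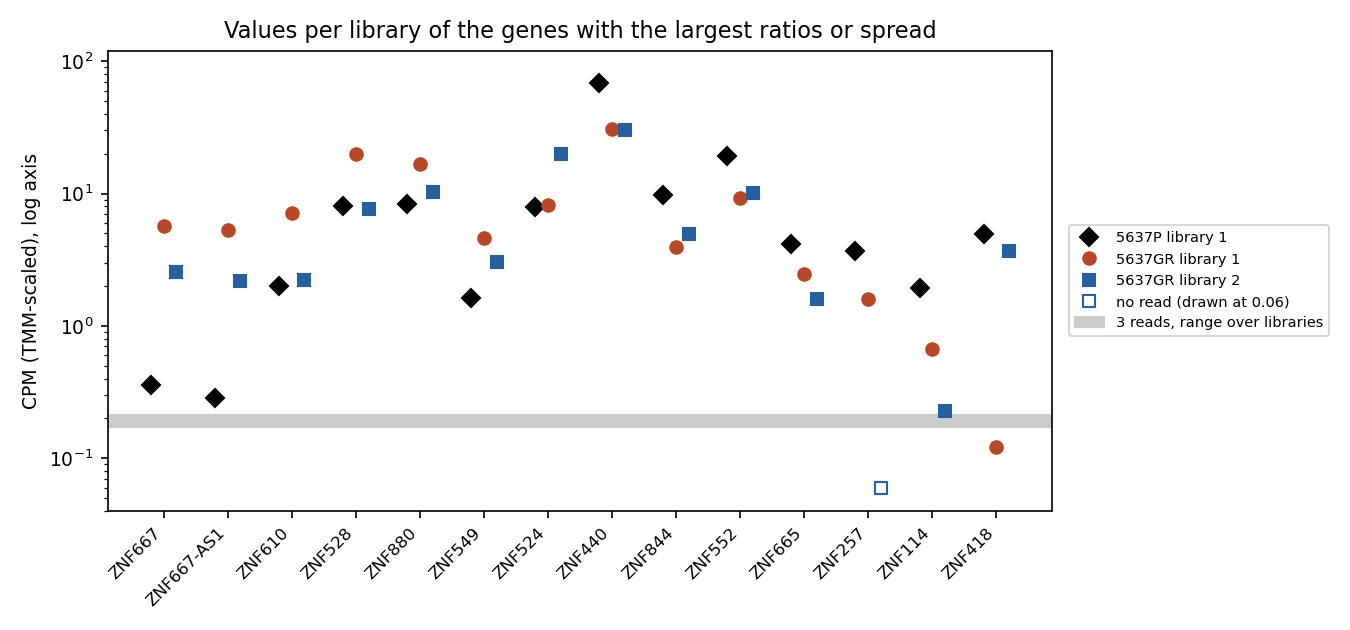
CPM after TMM scaling (vertical axis, log scale) of 14 genes (horizontal axis) in the 5637P library (diamonds), 5637GR library 1 (circles) and library 2 (squares). The grey band marks the level of 3 reads, 0.172 to 0.214 CPM, and the open square a library without a read. ZNF667 and ZNF667-AS1 are higher in both resistant libraries, ZNF440 is lower in both, and ZNF257 and ZNF418 drop below the band in a different library each.

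Between the 2 resistant libraries 17 of the 220 genes (7.73%) were at least 2-fold apart, against 9.86% of all genes past the filter and 26.9% of the other protein-coding genes of chromosome 19. Of the 17, ZNF418 and 8 others were higher in library 2. These 8, chosen after their values were seen, were ZNF284, ZNF296, ZNF444, ZNF524, ZNF579, ZNF628, ZNF787 and ZNF865, with log2 differences of 1.13 to 1.31. ZNF787, the gene with the highest level per length, stood at 29.6 FPKM in 5637P and at 20.3 and 49.0 FPKM in 5637GR, and ZNF579 at 21.0, 18.5 and 43.9 FPKM. ZNF146, whose protein consists of zinc fingers with no KRAB domain, had 28.5, 24.8 and 28.0 FPKM, and ZNF121 had 17.8, 18.1 and 20.0 FPKM. The highest levels per length thus belonged both to genes with similar values in the 3 libraries and to genes at least 2-fold apart between the resistant libraries.

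The difference between the resistant libraries moved with GC content. Over all genes the median log2 ratio of library 2 to library 1 was -0.17 in the lowest of the 5 classes of GC content and 0.39 in the highest. The 23 chromosome 19 ZNF genes of the upper 2 classes had a median of 0.77, and the 195 of the lower 3 classes a median of -0.01. For ZNF524, at 111, 135 and 349 reads and a log2 ratio of the group means of 0.93, the difference from 5637P rested on library 2. What part GC content had in these values was not tested.

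**Figure D4:**
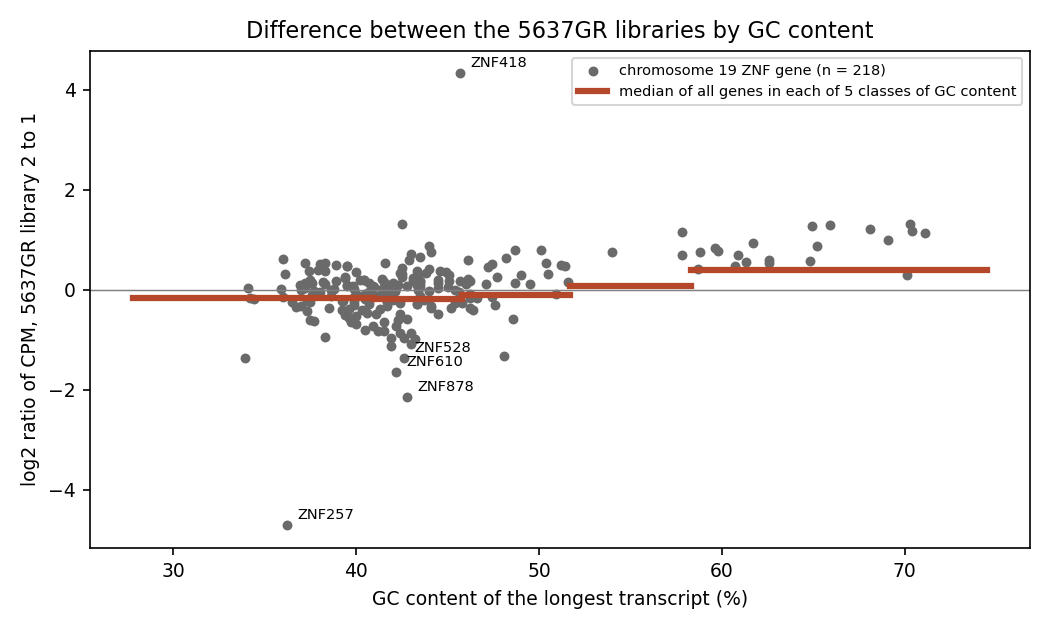
Log2 ratio of CPM between 5637GR library 2 and library 1 (vertical axis) against the GC content of the longest transcript in percent (horizontal axis) for 218 chromosome 19 ZNF genes (points), with the median of all genes in each of 5 equal classes of GC content (red bars, -0.17 to 0.39). Genes of high GC content lie above 0, and ZNF257 and ZNF418 stand furthest from the rest at -4.71 and 4.33.

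A list of KRAB corepressor genes and other chromatin genes, called cofactors here, was expressed and none of them passed the test. Of 23 listed cofactors, all past the filter, 8 had a higher and 15 a lower group mean in 5637GR (median -0.07 on the log2 scale), and 0 passed either an adjusted or an unadjusted p of 0.05 (edgeR; smallest adjusted p 0.529). TRIM28, the corepressor, stood at 1062 CPM in 5637P and at 727.6 and 1002 CPM in 5637GR. SETDB1, the histone H3 lysine methyltransferase it recruits, stood at 34.9, 35.8 and 34.2 CPM. The largest ratios of the list were 0.60 for SMARCAD1, a chromatin remodeller, and -0.57 and -0.55 for MPHOSPH8 and PPHLN1, which with FAM208A (TASOR) form the HUSH silencing complex. PPHLN1 was lower in both resistant libraries (-0.62 and -0.94 on the log2 scale), whereas MPHOSPH8 was lower in library 1 (-0.97) and slightly higher in library 2 (0.11). FAM208A itself had a ratio of 0.11. ZNF274, a chromosome 19 ZNF gene whose protein is known to bring SETDB1 to the ends of other zinc finger genes, was chosen after its values were seen and stood at 27.8, 23.3 and 32.4 CPM, a log2 ratio of 0.25.

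Some sequence features were more or less frequent in the promoters of the chromosome 19 ZNF genes than in promoters at large. RefSeq promoter windows of 300 bases (GRCh38.p14) were matched for 209 of the 240 symbols, 257 windows in all, among 35116 windows of the genome. They held a median of 20 CpG, against 14 over all windows. The ETS core CCGGAAG was found on either strand in 102 of them (39.7%, against 10.3% of all windows) and the CCAAT box in 48.6% (against 34.6%). The TATA box TATAAA was found in 2.72% (against 11.5%), the NRF1 core GCGCATGC in 4.67% (against 3.05%), the E-box CACGTG in 4.67% (against 7.26%) and the KAISO core TCCTGCNA in 3.89% (against 4.69%). These matches describe the letters of the windows and were not tested for binding. ZNF667 had the CCAAT box and neither the ETS core nor the TATA box in its window.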

How the data were processed

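Polyadenylated RNA of single-cell clones was sequenced by Novogene for the authors. The processing notes name CASAVA 1.8 and the build hg19; the aligner, counting tool and strand setting are not given in the sources used here. The deposited table holds raw read counts per library. It also holds deposited FPKM values per library, used only to compare levels between genes, and a group signal, the authors' mean of counts divided by size factors. The authors' deposited DESeq2 fold changes, p-values and adjusted p-values were not used, nor were 6 columns of per-library values without a sample label here.

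Counts were scaled by TMM and tested with edgeR 4.0.16 (R 4.3.3; quasi-likelihood, Benjamini-Hochberg over 15643 genes). With 1 residual degree of freedom, the lone 5637P library is assumed to vary like the 5637GR libraries, and p-values measure only the spread between these libraries, which stand for clones of 1 line. An exact permutation test of 1 library against 2 cannot give a one-sided p below 0.333, so none was run. The SE printed with an edgeR log2 fold change is the size of that change divided by the square root of the test's F statistic. DESeq2 1.42.0 was an alternative. Group ratios used a pseudocount of 1 and a mean of at least 10, library ratios a pseudocount of 0.0632 CPM. Intervals are 95% intervals of a ratio of counts and cover counting error only. Members and lists were chosen with earlier results of these data known. Named genes were ZNF667 and its antisense gene, the 12 largest group ratios in each direction with both libraries on the same side, the extremes of each cluster, the 5 highest FPKM, the 5 furthest apart between 5637GR libraries, and the listed cofactors. GC content and shared 50-base words came from the longest transcript of GENCODE release 29 (GRCh38), and promoters from RefSeq. Alternatives covered normalization, filters, pseudocounts, cluster gaps and leaving out each library. Summaries used Python 3.11.15 with pandas 2.3.3, numpy 2.4.6 and scipy 1.17.1, and figures matplotlib 3.10.9.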

Additional observations from a re-analysis of the deposited data

How the results depend on the processing

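No paired analysis was possible because the groups share only 1 replicate number, that of the single 5637P library. The single 5637P library enters every library ratio, and leaving it out gives no comparison. Without a filter on low counts edgeR called 1 gene higher (ZNF667, log2 fold change 3.51) and 1 lower (ZNF257), where 534 of 26434 genes were called. Leaving out 1 resistant library gave ZNF667 values from 2.84 to 3.97, with no test. Genes at least 2-fold higher numbered 1, and 2 with a pseudocount of 0.5, 0 with a mean of at least 50, 5 where ratios were taken from the 3 libraries and 8 with either resistant library left out (8 to 8). Genes at least 2-fold lower numbered 3, and 0, 12 and 12 to 12 in the last 3 of these settings. The median over the genes was -0.01, and -0.16 with the 3 libraries and -0.24 to -0.10 with 1 resistant library left out.

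Cluster medians of -0.41 at 11.6 to 12.8 Mb and -0.38 at 19.8 to 24.3 Mb stayed below 0 in each alternative run, the first between -0.68 and -0.21. Others turned. The 2.8 to 2.9 Mb median was 0.16 without library 1 and -0.58 without library 2. At 35.2 to 35.5 Mb it was 0.10 without library 1, -0.33 without library 2, 0.03 with clusters split at 2 Mb and 0.01 over genes sharing at most 10% of words. At 36.7 to 38.3 Mb it was -0.03 with the 3 libraries and ran from -0.08 to 0.02 with 1 resistant library left out, and at 40.5 to 40.6 Mb -0.11 with a mean of at least 50, -0.14 with the 3 libraries and -0.41 without library 2. At 44.0 to 45.6 Mb it was -0.01 with the 3 libraries and without library 2, at 52.1 to 54.1 Mb 0.10 with a split at 2 Mb, which joined it to the next cluster, and at 56.0 to 59.0 Mb 0.05 with the 3 libraries and -0.07 to 0.11 with 1 resistant library left out. The cause was not tested. Leaving out a resistant library replaces the group means by the other library's ratio. Counts of a few reads, as for ZNF667 in 5637P, limit the size of a ratio more than its side.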
